A study of Mus musculus with 26 samples.

Results

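Entpd2, Steap1, Angptl6, Cyb5r1, Eppk1 and Ampd3 are 6 genes whose signal in mouse pancreatic islets was reported to be lower at high than at low glucose, and they were picked from these same arrays for large falls with glucose. They were measured by the 7 probe sets that the platform annotation gives to 1 of these genes alone, of 45101 probe sets and 18193 named genes on the array. Islets came from wild-type C57/Bl6J male mice, young (5 weeks) or old (56 weeks), and no group carried an allele or a drug. They recovered for 1 day at 11 mM glucose and then spent 2 days at 3, 5.5, 11 or, for young mice only, 16 mM. Other islets of both ages were used fresh. A time course in young islets started after a night at 3 mM (time 0) and followed 1 h and 4 h at 11 mM, with no islets kept at 3 mM for those hours. Each of the 12 groups has 2 arrays, except young islets at 11 mM with 4. Replicates are termed biological in the labels, and pooling of animals is not mentioned there, so p-values measure only the spread between these samples, which may be partly technical.

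The islet is a mixture of hormone cells, most of them insulin-secreting beta cells, and beta cells adjust their metabolism, secretion and gene expression to the glucose around them. None of the 6 genes belongs to the classical glucose-sensing machinery. Entpd2 encodes a cell-surface enzyme that breaks down extracellular ATP, which islet cells release together with insulin and sense through purine receptors. Steap1 and Cyb5r1 encode membrane proteins of electron transfer, Steap1 in the STEAP family of metal reductases and Cyb5r1 in the family that passes electrons from NADH to cytochrome b5. Angptl6 encodes a secreted angiopoietin-like factor. Eppk1 encodes epiplakin, a large linker protein of the keratin network in epithelia, and Ampd3 an AMP deaminase, which turns AMP into IMP inside the cell.

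RefSeq promoters (assembly GRCm38.p6, 250 bases before to 50 bases after the annotated start) were found for 5 of the 6 genes. Those of the 4 genes with the largest log2 differences between 3 and 16 mM in young islets are shown. They are written 5′ to 3′ on the gene's strand, and capitals mark a motif match.
Entpd2 (chr2:25395624-25395923, plus strand): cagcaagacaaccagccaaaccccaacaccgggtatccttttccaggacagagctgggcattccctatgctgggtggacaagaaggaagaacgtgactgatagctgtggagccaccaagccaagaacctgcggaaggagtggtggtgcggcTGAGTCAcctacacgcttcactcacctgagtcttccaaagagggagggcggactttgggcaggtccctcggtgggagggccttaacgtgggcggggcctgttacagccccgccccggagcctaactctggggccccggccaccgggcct
Steap1 (chr5:5749268-5749567, minus strand): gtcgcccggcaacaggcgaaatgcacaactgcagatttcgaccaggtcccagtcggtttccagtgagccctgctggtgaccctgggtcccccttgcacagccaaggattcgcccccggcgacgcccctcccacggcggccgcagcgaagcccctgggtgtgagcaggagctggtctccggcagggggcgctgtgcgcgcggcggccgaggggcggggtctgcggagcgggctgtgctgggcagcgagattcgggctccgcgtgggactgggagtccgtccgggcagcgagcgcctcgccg
Angptl6 (chr9:20879661-20879960, minus strand): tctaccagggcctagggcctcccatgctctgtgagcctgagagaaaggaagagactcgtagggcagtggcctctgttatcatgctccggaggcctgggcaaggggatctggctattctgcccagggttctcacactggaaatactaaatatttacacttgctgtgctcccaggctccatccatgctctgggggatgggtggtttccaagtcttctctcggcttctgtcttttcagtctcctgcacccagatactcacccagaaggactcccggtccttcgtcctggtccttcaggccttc
Cyb5r1 (chr1:134405531-134405830, plus strand): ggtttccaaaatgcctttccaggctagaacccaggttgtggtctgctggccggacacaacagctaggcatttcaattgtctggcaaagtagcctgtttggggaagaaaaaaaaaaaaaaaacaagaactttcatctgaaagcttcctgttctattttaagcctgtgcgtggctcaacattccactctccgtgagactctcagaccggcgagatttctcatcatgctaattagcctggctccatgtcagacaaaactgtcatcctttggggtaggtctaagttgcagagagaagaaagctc
The motifs were searched on both strands. They were the E-box CACGTG, the carbohydrate response element (which holds a pair of E-boxes), the cAMP response element TGACGTCA, the C/EBP-ATF element TGATGNAAN, the forkhead motif GTAAACA and the AP-1 motif TGACTCA. Entpd2 had 1 match, to AP-1, read as TGAGTCA on this strand with its first base at -99 from the start. A promoter of Ampd3, not shown, had an E-box with its first base at -78 and an AP-1 match at 13. The AP-1 motif occurs in 5.20% of all 32851 promoters of this length, the E-box in 7.15% and the C/EBP-ATF element in 3.95%. The forkhead motif occurs in 3.65% and the cAMP response element in 1.79%. No promoter held the exact E-box pair, so its absence from these genes carries no information on looser forms of the element. Steap1, Angptl6 and Cyb5r1 had no match, which says only that these letters are not in this window. The 4 windows differed in base composition, from 45.7% G and C in Cyb5r1 to 72.3% in Steap1, where the median of all promoters was 52.7%.

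Signals below are the authors' MAS5 intensities on a linear scale, for which the median probe set of an array was at 28 to 42. The arrays fell into 2 sets by the ratio of 5′ to 3′ signal of the Gapdh control, a sign of RNA and labelling quality. This ratio was 1.03 to 1.48 on the 12 arrays of set A (every old sample, the fresh young ones, and young replicates 3 and 4 at 11 mM) and 0.1 to 0.277 on the 14 arrays of set B (the other cultured young islets and the time course). The array set was a term of every fit, and comparisons of old with cultured young islets cross the sets. All 9 islet hormone and beta cell markers were above the array median on every array. Cultured islets held less acinar and endothelial signal than fresh ones. The summed signal of 8 acinar markers was 10657 to 39054 in fresh islets and 154 to 1091 after 2 days in culture. That of 6 endothelial markers was 2620 to 2983 against 197 to 538. The sum of 5 duct markers, nearly all of it Krt7, went the other way at both ages. It was 844 to 1199 fresh and 1353 to 2003 at 11 mM in young islets. In old islets it was 1233 to 1490 fresh and 2046 to 2207 at 11 mM. The macrophage sum in old islets was 1679 to 2045 fresh and 2951 to 3026 at 11 mM. In young islets it was 1423 to 1605 and 924 to 2193. In such whole-islet RNA, fewer cells of a type and less RNA per cell cannot be told apart.

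After 2 days at a set glucose and in fresh islets, signal by group showed 3 patterns and 1 gene without the stated fall. Steap1, Angptl6 and Cyb5r1 were high at 3 and 5.5 mM and low at 11 and 16 mM and in fresh islets. Their 5.5 mM arrays lay below those at 3 mM in young islets, and overlapped them in old ones. In young islets 12% to 26% of their log2 difference between 3 and 11 mM was present at 5.5 mM. Entpd2 was lower at each higher concentration up to 11 mM at both ages, with 56.5% (young) and 39.1% (old) present at 5.5 mM. Eppk1 was high at 3 mM alone among these groups, and also high in the time course at 11 mM (327.5 on average after 1 h). Ampd3 was close to or below the array median throughout and does not bear out the label of a gene lowered by glucose, except for low values at 16 mM. Because the arrays at 3 to 16 mM chose these genes, their values there are a description with no test.

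**Figure D1:**
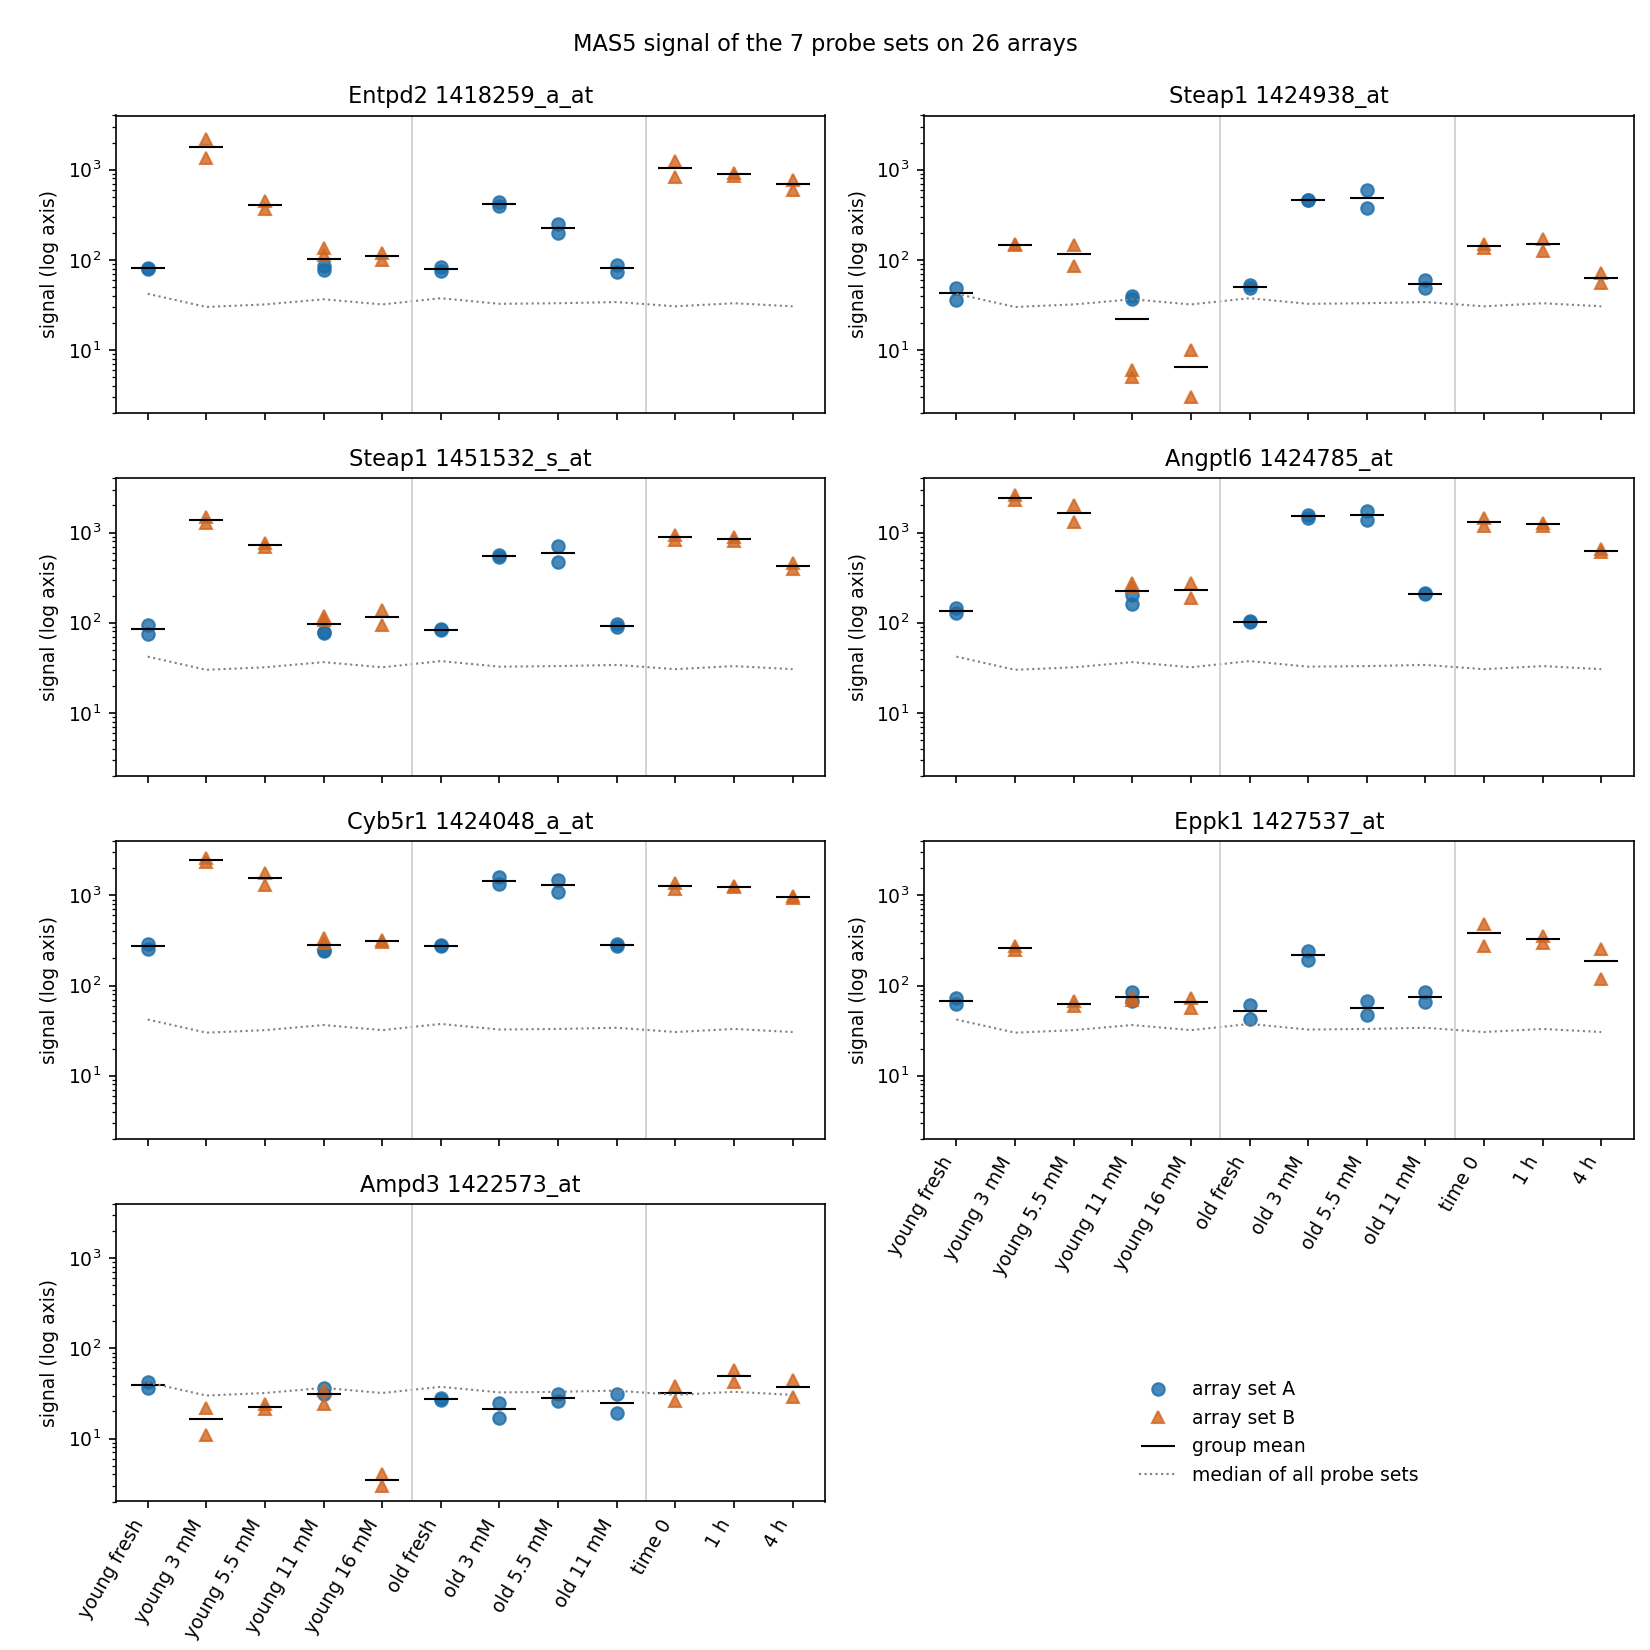
MAS5 signal (log axis) of each of the 7 probe sets on all 26 arrays, by group. Points are arrays, coloured by array set, bars are group means and the dotted line is the mean of the arrays' median signal. Angptl6 runs from 101 to 2586 and Cyb5r1 from 241 to 2630, whereas Ampd3 stays between 3 and 58.

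Entpd2 was graded over glucose. In young islets after 2 days its signals (probe set 1418259_a_at) were 1350 and 2220 at 3 mM, 449 and 363 at 5.5 mM, 114 and 135 at 11 mM on set B with 77 and 85 on set A, and 100 and 120 at 16 mM. In old islets they were 395 and 444 at 3 mM, 253 and 200 at 5.5 mM, and 74 and 87 at 11 mM. Fresh islets had 80 and 82 (young) and 84 and 76 (old). Every step from 3 through 5.5 to 11 mM separated the arrays at both ages, while 11 and 16 mM overlapped and the cultured 11 mM arrays of set A overlapped fresh islets. From 3 to 16 mM in young islets the log2 difference was -3.80 (SE 0.21), which is 13.9-fold on the scale log2(signal + 16) used for all differences. In old islets it was -2.18 (SE 0.21) from 3 to 11 mM, against -3.64 (SE 0.21) in young islets over the same range. The response was thus 1.47 (SE 0.29) smaller in old islets, and most of that difference lay at 3 mM, where old islets were 1.48 (SE 0.29) below young ones, a comparison that crosses the array sets. Schwann cells and other glia are a textbook site of Entpd2, and the 5 glial markers measured were uneven. Gfap (2 to 25) was below the array median throughout and S100b (1 to 44) above it on 1 array, while Sox10 (14 to 62) was above it on 17 of 26 arrays, Cdh19 (8 to 88) on 13 and Ngfr (4 to 61) on 10. The part of glia in the Entpd2 values was not tested.

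Angptl6 was high at both low concentrations and lowest in fresh islets. Its signals (1424785_at) in young islets were 2294 and 2586 at 3 mM, 2018 and 1315 at 5.5 mM, 246 and 275 (set B) with 204 and 163 (set A) at 11 mM, and 279 and 187 at 16 mM. Old islets had 1469 and 1572 at 3 mM, 1756 and 1374 at 5.5 mM, and 207 and 214 at 11 mM. In old islets the 3 and 5.5 mM arrays overlapped, so the whole difference of -2.76 (SE 0.19) lay between 5.5 and 11 mM. In young islets 18.3% of the log2 difference between 3 and 11 mM (-3.15, SE 0.19) was present at 5.5 mM. Fresh islets had the lowest signals, 129 and 144 in young and 104 and 101 in old mice. Within array set A, islets kept at 11 mM lay above fresh ones without overlap, by 0.38 (SE 0.19) in young and 0.94 (SE 0.19) in old islets. In old islets the Steap1 (1451532_s_at) and Eppk1 arrays at 11 mM lay above the fresh ones as well.

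Cyb5r1 at 11 and 16 mM lay at the level of fresh islets. Its signals (1424048_a_at) in young islets were 2336 and 2630 at 3 mM, 1783 and 1310 at 5.5 mM, 336 and 299 (set B) with 241 and 248 (set A) at 11 mM, and 319 and 308 at 16 mM. In old islets they were 1340 and 1588 at 3 mM, 1503 and 1101 at 5.5 mM, and 288 and 272 at 11 mM. Fresh islets had 291 and 253 (young) and 281 and 272 (old), within 0.14 on the log2 scale of islets kept at 11 mM at either age. The 3 and 5.5 mM arrays were apart in young islets (-0.69, SE 0.15) and overlapped in old ones (-0.18, SE 0.15). From 5.5 to 11 mM the difference was -2.21 (SE 0.15) in young and -2.14 (SE 0.15) in old islets. The spread between arrays of a group was the smallest of the 7 probe sets, with a residual SD of 0.153 in log2.

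Steap1 was read by 2 probe sets that gave a like course over glucose and differed between the array sets. With 1451532_s_at (in Affymetrix naming, the suffix _s_at marks probes that may match more than one gene's transcripts) young islets had 1267 and 1490 at 3 mM, 769 and 700 at 5.5 mM, 107 and 120 (set B) with 77 and 79 (set A) at 11 mM, and 95 and 138 at 16 mM. Old islets had 570 and 542 at 3 mM, 716 and 469 at 5.5 mM, and 96 and 89 at 11 mM, while fresh islets had 74 and 95 (young) and 85 and 83 (old). High and low glucose did not overlap at either age, and fresh islets lay with the high glucose groups. With 1424938_at young islets had 149 and 147 at 3 mM, 146 and 86 at 5.5 mM, 5 and 6 (set B) with 37 and 40 (set A) at 11 mM, and 3 and 10 at 16 mM. Old islets had 462 and 458, 594 and 380, and 60 and 49 at 3, 5.5 and 11 mM, and fresh islets 49 and 36 (young) and 52 and 49 (old). This probe set was above the array median on 20 of 26 arrays only. From 3 to 16 mM in young islets the probe sets gave -3.41 (SE 0.18) and -2.88 (SE 0.23), and from 3 to 11 mM in old islets -2.40 (SE 0.18) and -2.76 (SE 0.23).

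Which age had more Steap1 at 3 mM depended on the probe set. With 1451532_s_at old islets lay below young ones on every array (-0.82, SE 0.25), and with 1424938_at above them on every array (0.20, SE 0.32). The ratio of 1424938_at to 1451532_s_at signal was 0.379 to 0.845 (median 0.618) on the 12 arrays of set A and 0.0316 to 0.194 (median 0.122) on the 14 of set B, so it moved with the Gapdh ratio and with the array set. Within each set it also differed with glucose: in set A it was 0.81 to 0.845 at 3 and 5.5 mM against 0.379 to 0.662 at 11 mM and in fresh islets, and in set B 0.0987 to 0.194 at 3 and 5.5 mM and in the time course against 0.0316 to 0.0725 after 2 days at 11 and 16 mM. The smaller response of old islets with 1451532_s_at (by 1.03, SE 0.25) was not seen with 1424938_at (0.17, SE 0.32), and both cross the sets. No order of the ages is therefore given for Steap1, and the part of RNA quality in the other age differences was not tested.

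**Figure D2:**
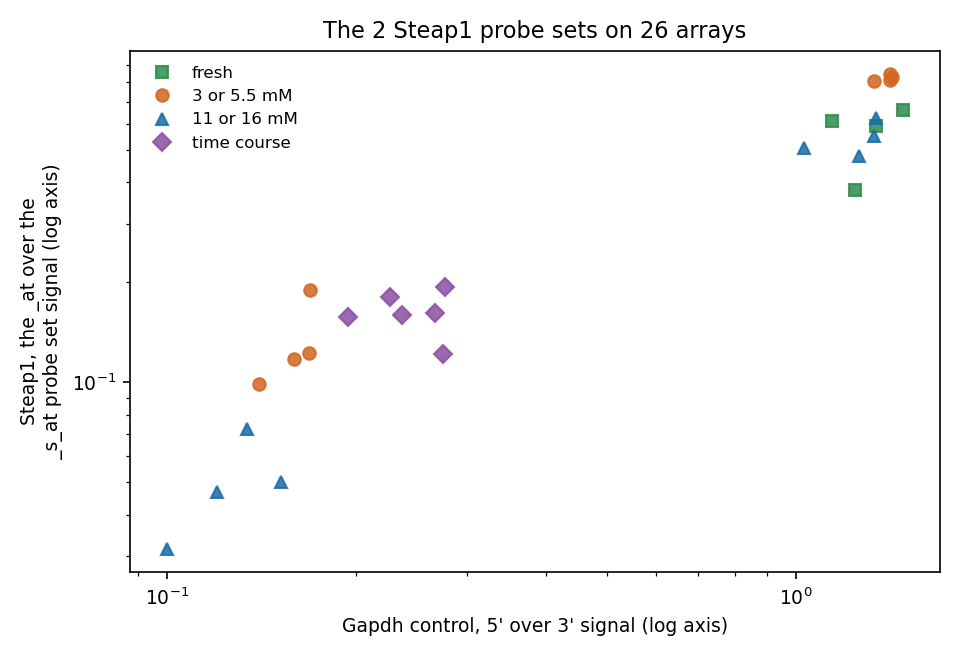
Ratio of the signals of the 2 Steap1 probe sets against the 5′ to 3′ ratio of the Gapdh control on the same array (both log axes), 26 arrays. The 12 arrays at the right (set A) lie at 0.379 to 0.845 and the 14 at the left (set B) at 0.0316 to 0.194, with no overlap between the sets.

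Eppk1 was at its low level from 5.5 mM on. Its signals (1427537_at) in young islets were 247 and 276 at 3 mM, 59 and 67 at 5.5 mM, 69 and 74 (set B) with 85 and 68 (set A) at 11 mM, and 73 and 57 at 16 mM. In old islets they were 240 and 192 at 3 mM, 47 and 67 at 5.5 mM, and 66 and 85 at 11 mM, and fresh islets had 62 and 72 (young) and 61 and 43 (old). Among islets kept for 2 days and fresh islets, the 3 mM arrays stood apart from all others at both ages, with no further step from 5.5 mM upwards: the difference from 3 to 5.5 mM was -1.81 (SE 0.27) in young and -1.67 (SE 0.27) in old islets, and from 3 to 11 mM -1.66 and -1.34. In shares, 109% of the young and 125% of the old log2 difference between 3 and 11 mM was present at 5.5 mM, against 56.5% and 39.1% for Entpd2. As epiplakin is an epithelial protein, the duct markers bear on it. Krt7 had 790 to 2961, and Sox9 stayed at 6 to 36, below the array median on every array. The summed signal of 5 duct markers, nearly all of it Krt7, was 2381 to 2603 at 3 mM, 2150 to 2551 at 5.5 mM, 1353 to 2003 at 11 mM (both array sets) and 1924 to 2155 at 16 mM in young islets, and the part of duct cells in the Eppk1 values was not tested.

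Ampd3 (1422573_at) was above the array median on 4 of 26 arrays. It had 11 and 22 at 3 mM, 24 and 21 at 5.5 mM, 24 and 35 (set B) with 36 and 31 (set A) at 11 mM, and 4 and 3 at 16 mM in young islets. Old islets had 17 and 25, 26 and 31, and 19 and 31 at 3, 5.5 and 11 mM, and fresh islets 42 and 36 (young) and 27 and 28 (old). The difference of -0.72 (SE 0.24) between 16 and 3 mM in young islets thus rested on 2 arrays near 0 against 2 others below the array median, and at 11 mM young islets lay above 3 mM (0.50, SE 0.24). In old islets 11 and 3 mM overlapped.

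**Figure D3:**
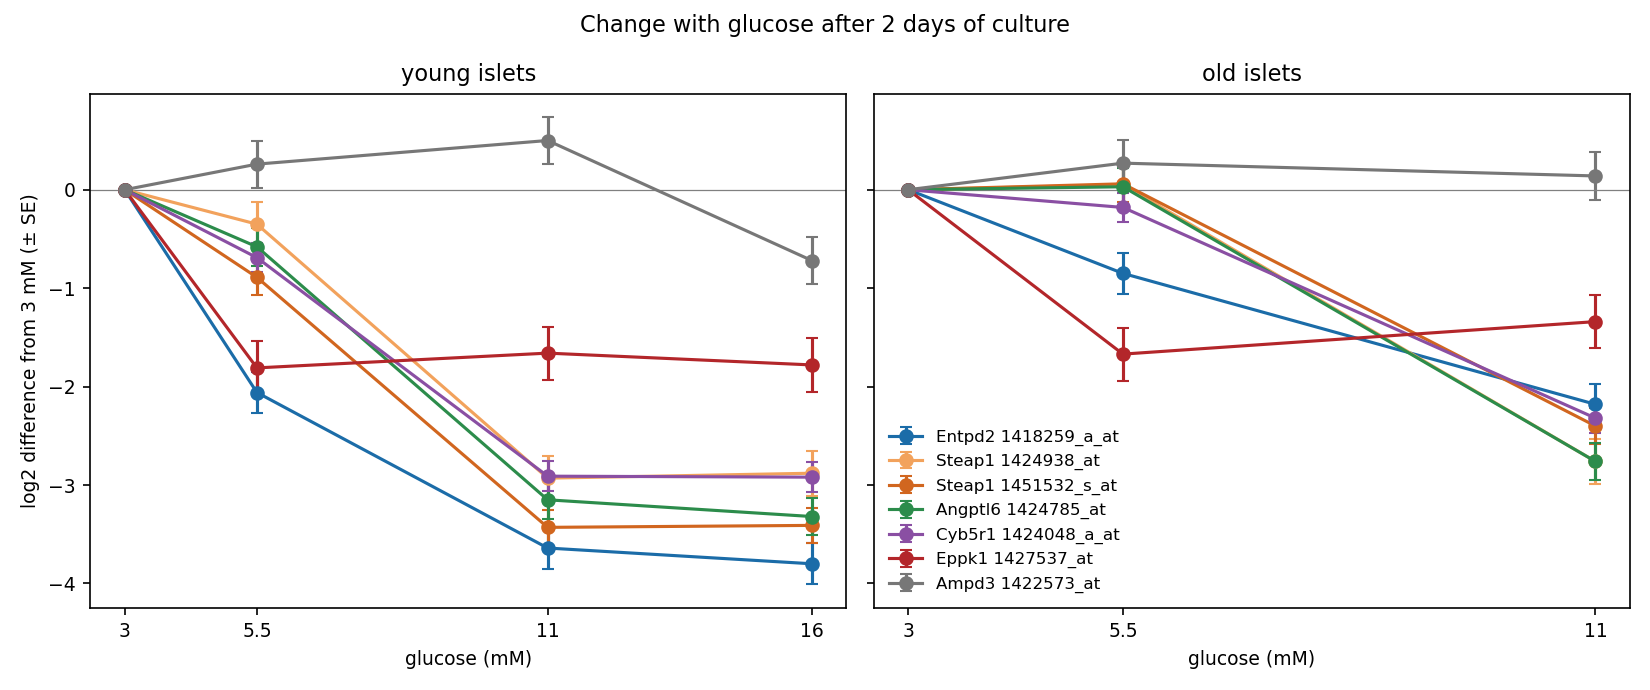
Log2 difference from 3 mM (± SE from the fit) of each probe set against glucose concentration after 2 days, in young (left) and old (right) islets. Eppk1 reaches its floor at 5.5 mM (-1.81 and -1.67), Entpd2 is part of the way down (-2.06 and -0.85), and Angptl6 and Steap1 in old islets have not moved from 3 mM (0.03 to 0.06).

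The profiles over the 12 group means were compared as a description, since the choice of genes favours likeness. Pearson's r was 0.973 to 0.986 among Steap1 (1451532_s_at), Angptl6 and Cyb5r1, 0.862 to 0.940 between these and Entpd2, 0.858 between Entpd2 and Eppk1, and 0.619 to 0.712 between Eppk1 and the other 3. The other Steap1 probe set, 1424938_at, stood further off, with r of 0.723 to 1451532_s_at, 0.774 to Angptl6, 0.772 to Cyb5r1, 0.536 to Entpd2 and 0.411 to Eppk1. Ampd3 had r of 0.0247 to 0.262 with all of them. Of 6735 genes whose group means ranged over at least 1 log2 unit, those most like Steap1 were Stbd1 (r = 0.981), which encodes a glycogen-binding protein, Dock5 (0.980) and Tenm4 (0.976). Stbd1 was also among the 3 most like Angptl6 (0.974, with Niban1 at 0.972 and Npm1 at 0.969) and Cyb5r1 (0.968, with Niban1 at 0.980 and Snhg6 at 0.968). Most like Entpd2 were Mcoln1 (0.983), a lysosomal channel gene, Spns1 (0.982) and Dph5 (0.982). Most like Eppk1 were Sun2 (0.960), Zfand2a (0.957) and Abhd5 (0.949). For Ampd3 the best were 6330407A03Rik (0.890), Rnf125 (0.861) and Itga2b (0.838), all at low signal. These r values share the arrays and their sets, and carry no test.

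The rule that chose the genes did not use the move from 3 to 11 mM for hours, though earlier results of these data were known at that choice. This move was tested with limma over all 27778 probe sets that passed a filter on low signals, which the 7 probe sets also passed. Ampd3 passed this filter through 4 arrays only, all of them in the time course. After 4 h, 4 of 7 probe sets, of 3 genes, had fallen at an adjusted p under 0.05, where 4.51% of all probe sets tested had fallen and 9.28% had changed either way. The falls of Steap1, Angptl6 and Eppk1 were about 1 log2 unit. Entpd2 and Cyb5r1 were lower on both arrays and did not pass. After 1 h none of the 7 passed, and none had an unadjusted p under 0.05.

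Angptl6 had 1460 and 1180 at time 0, 1282 and 1197 at 1 h, and 657 and 607 at 4 h. The 4 h arrays lay clear below the rest, by -1.04 from time 0 (SE 0.19, 2.05-fold, adjusted p = 0.00122). Steap1 had 945 and 826, 803 and 887, and 393 and 460 with 1451532_s_at, and 151 and 134, 126 and 172, and 71 and 56 with 1424938_at. Both showed the same late step, of -1.03 (SE 0.18, adjusted p = 0.00084) and -1.0 (SE 0.23, adjusted p = 0.00711). Angptl6 and 1451532_s_at passed in all 14 alternatives tried. The call of 1424938_at was lost without replicate 1 of time 0 (-0.92, adjusted p = 0.0669), without replicate 2 of 4 h (-0.86, adjusted p = 0.0781) and without the array set term (adjusted p = 0.179), with adjusted p from 0.00401 to 0.179 over the alternatives.

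Eppk1 had 274 and 486 at time 0, 297 and 358 at 1 h, and 117 and 254 at 4 h. The arrays at 4 h lay below those at time 0 by a narrow margin, and the fall of -1.01 (SE 0.27, 2.01-fold) passed with an adjusted p of 0.0217. It rested on single arrays: it was -0.61 (adjusted p = 0.321) without replicate 2 of time 0 and -0.50 (adjusted p = 0.396) without replicate 1 of 4 h. Fitted on the time course arrays alone, the same difference had an adjusted p of 0.166. With the replicate number as a block the adjusted p was 0.00177.

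Entpd2 had 829 and 1243 at time 0, 860 and 920 at 1 h, and 602 and 771 at 4 h. The difference at 4 h was -0.56 (SE 0.21, adjusted p = 0.101), which passed with the replicate number as a block (adjusted p = 0.035) and without replicate 1 of time 0 (-0.85, adjusted p = 0.0404). Cyb5r1 had 1365 and 1168, 1241 and 1269, and 927 and 990, a difference of -0.39 at 4 h (SE 0.15, adjusted p = 0.117, and 0.077 with the block). Ampd3 had 26 and 38, 42 and 58, and 29 and 45, with 0.14 at 4 h (SE 0.24, adjusted p = 0.82). At 4 h Entpd2 and Cyb5r1 were thus still far above their level after 2 days at 11 mM. The same held for the genes that passed, by mean signal at 4 h against young islets at 11 mM on set B. These were 632 against 260.5 for Angptl6, 426.5 against 113.5 for Steap1 (1451532_s_at) and 185.5 against 71.5 for Eppk1.

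**Figure D4:**
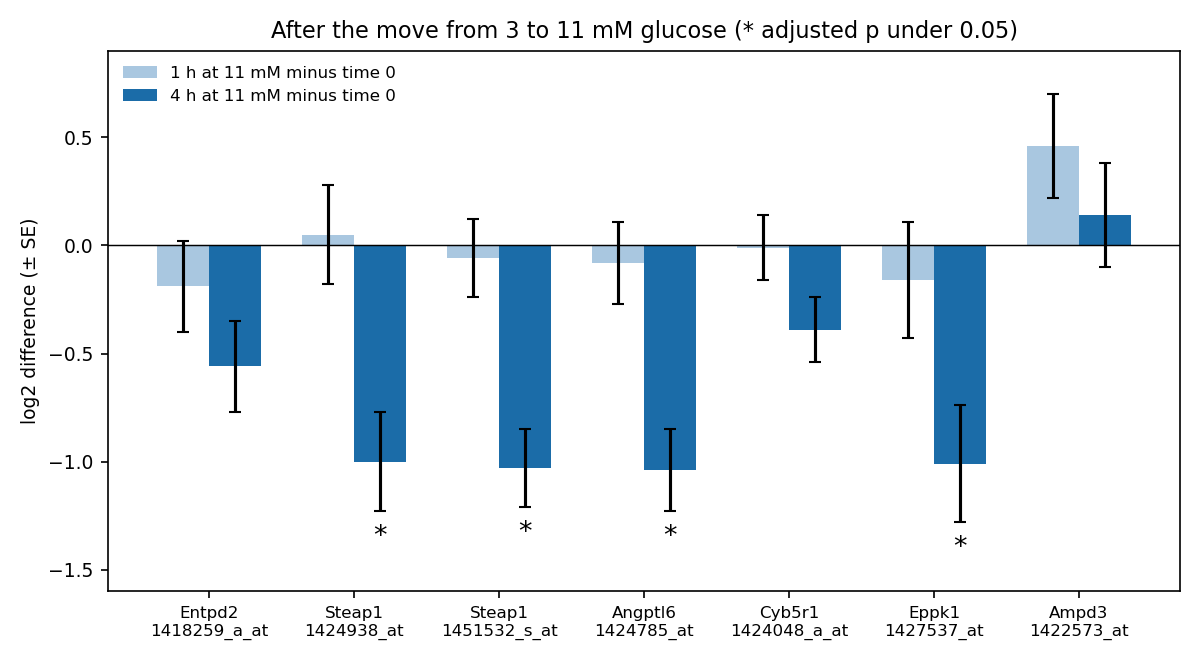
Log2 difference (± SE) of each probe set from time 0 after 1 h and 4 h at 11 mM glucose, young islets, 2 arrays each. Bars for Steap1, Angptl6 and Eppk1 at 4 h are near -1 and carry an asterisk, those at 1 h lie between -0.19 and 0.46.

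At 1 h the differences ranged from -0.19 (Entpd2) to 0.46 (Ampd3), with adjusted p of 0.754 to 1, and 0.385% of all probe sets had changed. Between 1 h and 4 h, 3 of 7 probe sets fell, where 1.12% of all probe sets did: Steap1 by 0.96 (SE 0.18, adjusted p = 0.00585, 1451532_s_at) and 1.05 (SE 0.23, adjusted p = 0.0184, 1424938_at) and Angptl6 by 0.95 (SE 0.19, adjusted p = 0.0088) on the log2 scale. Angptl6 lost this call without any 1 of the 4 arrays (adjusted p 0.0609 to 0.0787), and passed in 8 of 14 alternatives. Steap1 lost it without replicate 2 of 1 h (adjusted p = 0.0897 and 0.218), without replicate 1 of 4 h (0.0892 and 0.0667) and, for 1424938_at, without replicate 2 of 4 h (0.149) and with an offset of 1 (0.0819). Without the array set term the adjusted p was 0.0768 for Angptl6, 0.0557 for 1451532_s_at and 0.354 for 1424938_at, and on the time course arrays alone 0.0739, 0.0738 and 0.106, so none of the 3 passed in either. Eppk1 had -0.85 (SE 0.27, adjusted p = 0.124), which passed with the block (adjusted p = 0.0172) and without replicate 2 of 4 h (-1.36, adjusted p = 0.0223). Entpd2 had -0.38 (adjusted p = 0.488), Cyb5r1 -0.38 (adjusted p = 0.245) and Ampd3 -0.32 (adjusted p = 0.656). The block raised the number of probe sets called over the whole array from 107 to 253 at 1 h, from 2578 to 3877 at 4 h against time 0 and from 534 to 1385 at 4 h against 1 h. These comparisons share their arrays, so their values stand side by side and are not independent. Acinar markers summed to 799 and 6578 at time 0, 237 and 4154 at 1 h, and 790 and 1735 at 4 h, and none of 8 passed at 4 h; their part in the falls was not tested.

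After a night at 3 mM, in arrays that the rule also did not use, 5 of the 6 genes lay above fresh young islets. No islets spent that night at another glucose, so culture and glucose cannot be told apart. Entpd2 rose by 2.88 (SE 0.29, 7.36-fold, adjusted p = 3.36e-06), from 80 and 82 in fresh islets to 829 and 1243. Steap1 rose by 2.71 (SE 0.25, adjusted p = 1.21e-06) with 1451532_s_at and 2.79 (SE 0.32, adjusted p = 1.15e-05) with 1424938_at. Angptl6 rose by 2.65 (SE 0.26, 6.27-fold, adjusted p = 2.42e-06), Eppk1 by 2.28 (SE 0.38, 4.85-fold, adjusted p = 0.000467) and Cyb5r1 by 1.80 (SE 0.21, 3.48-fold, adjusted p = 1.61e-05). Ampd3 did not pass (-0.08, SE 0.33, adjusted p = 0.905). So 6 of 7 probe sets rose, where 9.15% of all probe sets did, and these calls held in all alternatives tried. This comparison crosses the array sets and is corrected by the 4 young arrays at 11 mM, which were among those that chose the genes. Its estimates are therefore not wholly free of that choice. Without the array set term 1424938_at gave 1.44 (adjusted p = 0.00594), and its value over all alternatives ran up to 4.34.

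Markers of several cell types moved in the same comparison, where 9.03% of genes rose and 12% fell. Of 8 acinar markers 4 fell, and their summed signal was 10657 to 19290 in fresh young islets and 799 to 6578 at time 0. Of 6 endothelial markers 3 fell, and of 9 islet endocrine markers 4 fell. Of 7 macrophage markers 2 fell and 1 rose, of 3 duct markers 1 rose, and of 7 fibroblast markers 1 fell. The part of these cell types in the rises was not tested. Old islets, all of array set A, gave differences of 2.18 (Entpd2), 2.52 and 2.84 (Steap1), 3.70 (Angptl6), 2.33 (Cyb5r1) and 1.78 (Eppk1) between 2 days at 3 mM and fresh, as a description. After 2 days at 3 mM young islets lay further above time 0 for Cyb5r1 (0.96, SE 0.15), Angptl6 (0.88, SE 0.19), Entpd2 (0.76, SE 0.21) and Steap1 1451532_s_at (0.63, SE 0.18). For Eppk1 (-0.46, SE 0.27) and Steap1 1424938_at (0.05, SE 0.23) these arrays overlapped.

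None of the 7 probe sets passed between fresh islets of old and young mice, where 6.42% of all probe sets had changed. The limma adjusted p ranged from 0.265 to 0.999, and none had an unadjusted p under 0.05. The largest values were -0.36 for Angptl6 (SE 0.19), -0.34 for Ampd3 (SE 0.24) and -0.30 for Eppk1 (SE 0.27), and Entpd2 (-0.02, SE 0.21), Cyb5r1 (0.03, SE 0.15) and Steap1 1451532_s_at (0.00, SE 0.18) were near 0. These intervals do not show that the ages are alike, and cell type markers differed too. Of 7 fibroblast and stellate cell markers 6 were lower in fresh old islets (median -1.1), among them the collagen gene Col3a1 (-2.71, adjusted p = 2.79e-06). The acinar sum was 21827 to 39054 in fresh old and 10657 to 19290 in fresh young islets, though none of 8 acinar markers passed. The part of these cells in the values was not tested.

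Relatives of the 6 genes were followed in lists that mix genes of the same family with genes of a linked function, such as iron handling or sterol synthesis. They hold 102 relatives, 70 of which had a tested probe set. The lists were chosen with earlier results of these data known, so their shares in any comparison describe these lists and are no independent support. From 3 to 16 mM in young islets 18 rose and 5 fell (32.9%), where 13.7% of genes rose, 13.3% fell and 27% changed. From 3 to 11 mM in old islets 17 rose and 3 fell (28.6%), where 12.8% rose, 9.74% fell and 22.6% changed. The median relative had 0.21 and 0.23, against 0.01 and 0.04 over all genes. The count of those called was 15 in young islets without replicate 1 at 3 mM or replicate 2 at 16 mM, and in old islets 10 without replicate 1 at 3 mM and 13 without replicate 2 at 11 mM.

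Among ectonucleotidases and purine receptors, 5 of 12 rose and 1 fell in young islets, and 4 rose in old ones. Entpd3, another surface ATP-degrading enzyme, rose from 930 and 805 at 3 mM to 2136 and 1944 at 16 mM (1.22, SE 0.14, adjusted p = 2.59e-06), the opposite direction to Entpd2. In old islets it rose from 568 and 577 to 792 and 957 (0.59, SE 0.14, adjusted p = 0.00424), a call lost without replicate 2 at 11 mM (0.46, adjusted p = 0.0724). The ADP receptor genes P2ry1 (1.48, adjusted p = 0.000376) and P2ry12 (1.22, adjusted p = 0.000977) rose in young islets at signals below 90. The 1 gene that fell was Entpd5 (-0.51, adjusted p = 0.0324), an enzyme of the endoplasmic reticulum, named after its value was seen. In the list with Ampd3, of adenine nucleotide interconversion, 4 of 18 rose and 4 fell in young islets. Nt5c3 rose by 1.09 (SE 0.13, adjusted p = 3.81e-06) in young and 1.38 (SE 0.13, adjusted p = 5.82e-07) in old islets. It encodes a cytosolic nucleotidase that is not specific to adenine nucleotides. Adk, adenosine kinase, rose by 0.89 and 0.85 (both SE 0.13, adjusted p = 3.52e-05 and 9.15e-05). Ampd2, the other AMP deaminase named, rose in young islets by 0.74 (SE 0.17, adjusted p = 0.0035), from 1758 and 2025 to 2687 and 3712; the call was lost without replicate 1 at 3 mM (0.64, adjusted p = 0.0524) or replicate 2 at 16 mM (0.51, adjusted p = 0.0879).

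Among cytochrome b5, its reductases and the desaturases and sterol enzymes it serves, 5 of 14 rose and none fell in young islets, and 5 rose and 1 fell in old ones. Cyb5b, the mitochondrial outer membrane cytochrome b5, rose from 788 and 791 to 2486 and 2319 in young islets (1.59, SE 0.12, adjusted p = 3.47e-08) and by 1.17 (SE 0.12, adjusted p = 2.49e-06) in old ones, where the mean of its probe sets gave 0.27 (adjusted p = 0.0651). Scd2, a fatty acid desaturase, rose by 1.89 (SE 0.25, adjusted p = 1.64e-05) and 1.46 (SE 0.25, adjusted p = 0.00034), and Msmo1, an enzyme of sterol synthesis, by 1.29 in young islets (SE 0.22, adjusted p = 0.000242). The 1 that fell in old islets was the reductase Cyb5r4 (-0.56, adjusted p = 0.00663), and the reductase Cyb5r3 rose there (0.49). In young islets no tested reductase passed (Cyb5r3 -0.12, Cyb5r4 -0.24, Cyb5rl 0.22). These reductases were named after their values were seen. Of the STEAP and iron list, 2 of 9 rose at each age and none fell: Ireb2, an iron regulatory protein (0.61 and 0.45), and Slc40a1, the iron exporter (0.37 and 0.77). The other STEAP genes tested, Steap2 (-0.22 in young and -0.27 in old islets) and Steap4 (-0.11 and -0.25), did not pass. In young islets Slc40a1 (adjusted p = 0.0443) passed in 5 of 14 alternatives only, with adjusted p up to 0.247, and without any 1 of the 4 arrays it did not pass. In old islets Ireb2 (adjusted p = 0.021) passed in 10 of 14, and lost its call without replicate 1 at 3 mM (0.39, adjusted p = 0.163) or replicate 1 at 11 mM (0.23, adjusted p = 0.296). Of the angiopoietin-like list 1 of 6 rose, Angptl7 (1.42 and 1.68), from signals of at most 20; in young islets it lost its call without replicate 1 at 3 mM (1.0, adjusted p = 0.136) or replicate 2 at 16 mM (1.06, adjusted p = 0.114). Of the plakins and keratins 1 of 11 rose in young islets, the plakin Macf1 (1.06, SE 0.14, adjusted p = 1.14e-05), and in old islets Macf1 (0.73) and the plakin Dst (0.72) did, the mean of the Dst probe sets not passing (0.18, adjusted p = 0.324).

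**Figure D5:**
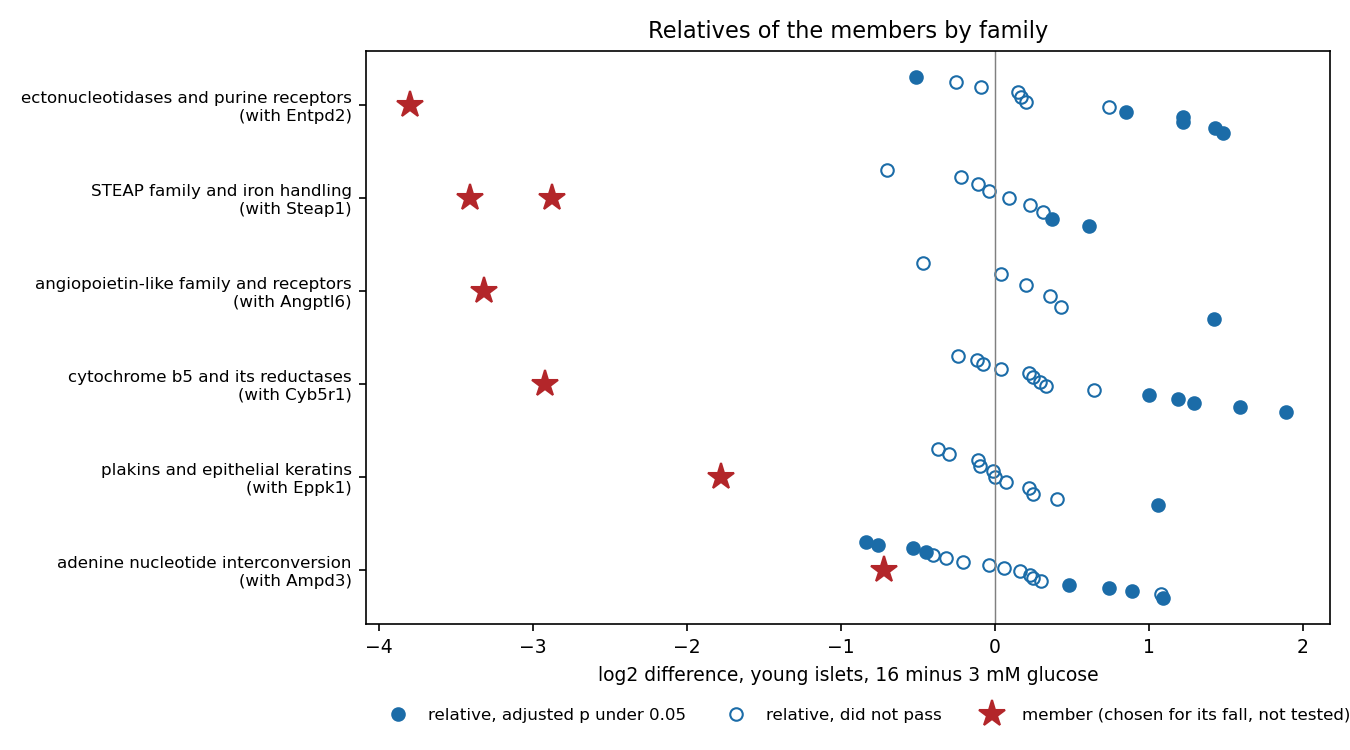
Log2 difference between 16 and 3 mM in young islets for the 70 tested relatives (circles, filled where the adjusted p is under 0.05) and for the 6 genes (stars, not tested), by list. Stars of Entpd2, Steap1, Angptl6 and Cyb5r1 lie at -3.80 to -2.88, while the relatives run to 1.89 (Scd2) on the other side.

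At 4 h against time 0, 5 of 70 relatives had risen and 2 fallen (10.0%, where 5.22% of genes had risen, 5.21% fallen and 10.4% changed). Scd2 rose by 1.47 (SE 0.25, adjusted p = 0.000766), from 572 and 490 to 1536 and 1460, and passed in all alternatives tried. Cyb5b rose by 0.78 (SE 0.12, adjusted p = 0.000429), and the mean of its probe sets did not pass (0.08, adjusted p = 0.724). Entpd7 (0.97), Ireb2 (0.63) and Slc40a1 (0.52) also rose, and Angptl4 (-1.82, to signals of 4 and 3) and Steap2 (-0.64) fell. Each of these 5 lost its call without 1 array: Entpd7 without replicate 1 of 4 h (0.64, adjusted p = 0.086), Ireb2 without the same array (0.50, adjusted p = 0.0867) or replicate 2 of time 0 (0.54, adjusted p = 0.0696), and Angptl4 without replicate 1 of time 0 (-1.52, adjusted p = 0.0669). Steap2 lost it without replicate 1 of time 0 (-0.40, adjusted p = 0.234) or replicate 2 of 4 h (-0.54, adjusted p = 0.123), and Slc40a1 without replicate 2 of time 0 (0.47, adjusted p = 0.12) or either 4 h array (0.50 and 0.54, adjusted p = 0.0955 and 0.0586). The mean of the Slc40a1 probe sets did not pass either (0.20, adjusted p = 0.491). At 1 h none of the 70 passed the limma test, with 1 at an unadjusted p under 0.05, where 0.294% of genes had changed. Between 1 h and 4 h 1 rose and 1 fell, where 0.898% of genes rose, 1.49% fell and 2.38% changed.

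After a night at 3 mM against fresh young islets 7 of 70 relatives rose and 11 fell (25.7%, where 9.03% of genes had risen, 12% fallen and 21% changed). Hmox1, the haem-degrading enzyme of the iron list, rose by 3.60 (SE 0.62, adjusted p = 0.000582), from 20 and 26 to 241 and 559, alongside Steap1. Scd2 (-1.87, adjusted p = 0.0011), Cyb5b (-1.24, adjusted p = 9.92e-05), Adk (-1.59, adjusted p = 9.13e-06) and Slc40a1 (-1.23, adjusted p = 0.000146) fell, though the mean of the Cyb5b probe sets did not pass (-0.15, adjusted p = 0.511). The keratin genes Krt7 (1.07, adjusted p = 0.000986) and Krt18 (1.05, adjusted p = 0.00709) rose together with Eppk1, and Krt18 lost its call without replicate 2 of time 0 (0.81, adjusted p = 0.0565). Between fresh old and fresh young islets 4 relatives were higher and 4 lower in old mice (11.4%, where 4.84% of genes were higher, 3.06% lower and 7.9% changed).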

How the data were processed

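Total RNA of islets was hybridised to 26 Affymetrix mouse arrays. The deposited values are linear intensity per probe set; per the submitters' processing notes the authors used MAS5, whose version and genome build are not given in the sources used here. Their trimmed mean was 147 to 150 on every array, so no scaling was added. Precision is limited by the number of arrays. The annotation gives 1 gene symbol to 34945 of 45101 probe sets and several to 932, which were left out.

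Values were taken as log2(value + 16), which understates how much dim genes change. The 27778 probe sets (12580 genes) that exceeded the median of their array on 2 or more arrays were fitted with limma 3.58.1 in R 4.3.3, with 12 group means, the array set as a term and an intensity trend (13 residual and 7.09 prior degrees of freedom). P-values were adjusted by Benjamini-Hochberg over all probe sets, and calls are at an adjusted p under 0.05. The SE is the moderated one. A relative is shown by its brightest probe set, and up to 3 members of a list with the smallest adjusted p are named. The 3 genes with the highest Pearson's r to a member are named. The fit was tested on simulated data with independent noise on each array. The simulation therefore does not cover the correlation between arrays of the same replicate number given below.

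The members, gene lists and markers were chosen with earlier results of these data known. The lists cover 6 sets of relatives, by family or linked function, and islet endocrine, acinar, ductal, endothelial, fibroblast, glial and macrophage cells. From 3 to 16 mM in young islets 6 of 9 endocrine markers rose and 1 of 7 macrophage markers rose, 1 of 6 endothelial and 1 of 7 fibroblast markers fell, and no acinar, duct or glial marker passed. Deviations from the group means of arrays with the same replicate number correlated at 0.48 to 0.57 in the 3 pairs of time course groups and 0.16 to 0.38 in the 6 pairs of cultured young groups, so numbers pair these arrays. In old islets the 6 pairs gave 0.088 to 0.28. The main fit did not use the pairing by replicate number, and the replicate block was run as an alternative only. Alternatives were another offset, no filter, quantile normalization, no trend, no array set term, the replicate block, other rules for probe sets, fewer arrays and leaving out each array.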

Additional observations from a re-analysis of the deposited data

How the results depend on the processing

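For the 6 probe sets other than that of Ampd3, differences at 4 h and overnight kept their direction under every alternative, and their calls that changed are given with each gene. The number of probe sets called over the whole array moved more. At 1 h (107) it was 22 without the array set term, 253 with the array set plus replicate block, 33 with the brightest probe set per gene, 22 with the mean of a gene's probe sets, and 0 with time course arrays alone (limma, with 2086 at an unadjusted p under 0.05), and 7 to 75 when leaving out 1 array. At 4 h against time 0 (2578) it was 1172, 3877, 1428, 1272 and 1516 in the same order, and 1047 to 1542. At 4 h against 1 h (534) it was 107 without the term, 1385 with the block, 285 with the mean and 17 with time course arrays alone, and 104 to 249. Overnight against fresh (5148) it was 11749 without the term, 2845 with the brightest and 2426 with the mean, and 2886 to 4448; leaving out the young 11 mM arrays here was chosen after seeing the data, and no fit on 1 experiment was run. For fresh old against young (1782) it was 282 without the term, 3093 with the block, 917 with the mean and 471 with fresh arrays alone, and 512 to 904. Relatives numbered 15 to 18 (young, from 23) and 10 to 19 (old, from 20) when leaving out 1 array. With the replicate block the relatives called numbered 30 at either age, and the block changed no other call of the 6 genes than those given. Fits per gene test 12580 values in place of 27778, and fits on 1 experiment hold fewer arrays; the cause of the other moves was not tested.

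Values that changed sign were all near 0 and passed no test. At 1 h these were Entpd2 (0.1), Cyb5r1 (0.02 with quantile normalization, 0.1 and 0.01), Angptl6 (0.07), Steap1 (-0.03 and -0.16, then 0.03 and 0.01 with 1451532_s_at) and Eppk1 (0.24). Leaving out 1 array gave a range of -0.48 to 0.1 for Entpd2, -0.12 to 0.1 for Cyb5r1, -0.23 to 0.07 for Angptl6, -0.16 to 0.25 for Steap1 1424938_at and -0.55 to 0.24 for Eppk1 at 1 h. They were also Ampd3 at 4 h (-0.08 to 0.36 when leaving out 1 array, -0.04 among them) and overnight against fresh (0.1 with quantile normalization, and -0.26 to 0.11 when leaving out 1 array), and in fresh old against young islets Entpd2 (0.04) and Cyb5r1 (-0.04 with quantile normalization, and -0.07 to 0.12). All but those with quantile normalization came from leaving out 1 array. Low signal limits Ampd3 and Steap1 1424938_at, which were above the array median on 4 and 20 of 26 arrays.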
